A study of Homo sapiens with 9 samples.

Results

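SLFN5, SLFN11, SLFN12, SLFN13, PARP1, PARP2, XRCC1, BRCA1 and TOP1, a set of 9 genes that bear on how cells withstand DNA damage, were followed by RNA sequencing in TC-32, a Ewing sarcoma cell line, with and without introduced ETS1. The genes were taken by symbol, with no measured value in the rule, but they were chosen with earlier results of these data known. All 9 genes were found among the 58381 genes of the deposited tables, and all 9 passed the filter on low counts that left 17235 genes for testing. Within the Schlafen family, SLFN12 and SLFN5 were lower in both ETS1 groups than in the RFP group, by 7.85-fold and 3.03-fold in ETS1-High. SLFN11 and SLFN13 were higher in both, by 1.16-fold and 1.49-fold in ETS1-High. On values scaled to gene length (FPKM) both rises in ETS1-High were smaller, and that of SLFN11 was not called. Of the other 5 genes, PARP1 and TOP1 were lower in both ETS1 groups, by 1.38-fold and 1.36-fold in ETS1-High, and BRCA1 was lower mainly in ETS1-High, by 1.31-fold. PARP2 and XRCC1 moved by at most 1.18-fold.

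Schlafen proteins are vertebrate proteins with roles in cutting transfer RNA, in antiviral defence and in replication stress, and several of their genes respond to interferon. SLFN11 is known for binding to stressed replication forks and stopping replication for good, so that cells without it withstand PARP inhibitors and topoisomerase poisons better. PARP1 senses DNA strand breaks and marks them with poly(ADP-ribose), PARP2 shares that work, XRCC1 is the scaffold that the mark brings to single-strand breaks, BRCA1 acts in homologous recombination, and TOP1 is the enzyme that camptothecins trap on DNA. Ewing sarcoma cells are known for responding to drugs of both kinds, and SLFN11 has been described as a target of their fusion factor EWSR1::FLI1, which shares the GGAA-binding ETS domain with ETS1.

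The study measured 9 libraries in 3 groups of 3. RFP stands for TC-32 cells given the lentiviral pLOC vector with RFP, and ETS1-Low and ETS1-High stand for TC-32 cells given pLOC with a synthetic human ETS1 cDNA, at a lower and a higher ETS1 level. All groups carry the vector and the cell line's own EWSR1::FLI1, and the protocol in the labels, written alike for every library, has puromycin selection and single-cell sorting. The ETS1 groups are described as single cell clones, the number of clones per group is not stated, and nothing says that the libraries of a group came from separate cultures, so p-values measure only the spread between these libraries, and a difference between groups cannot be told apart from a difference between clones. RNA was measured in bulk, so less RNA per cell and fewer cells with it cannot be told apart, and the tables hold no protein level or drug response. Library totals ran from 39484704 to 46654734 expected counts.

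ETS1 itself followed the labels. It stood at 2.00 ± 0.17 CPM (counts scaled to a common library total after TMM normalisation) in RFP, 10.6 ± 0.30 in ETS1-Low and 19.1 ± 0.81 in ETS1-High (mean ± SD, n = 3, as for every level and share below). Of 8 Ewing sarcoma markers, 8 had a mean of at least 1 CPM in RFP and 7 in each ETS1 group. Their summed level was 1006 to 1030 CPM in RFP, 1300 to 1325 in ETS1-Low and 1345 to 1383 in ETS1-High. GLI1 was the marker that fell, averaging 1.41 CPM in RFP, 0.56 in ETS1-Low and 0.71 in ETS1-High. Each of the others had a higher mean in both ETS1 groups than in RFP. Immune and endothelial markers summed to between 0.65 and 5.56 CPM in every library, with CD3E at 0 throughout. The 4 epithelial markers, nearly all of it the keratin gene KRT18, summed to 78.1 to 82.5 CPM in RFP, 156.0 to 165.3 in ETS1-Low and 110.2 to 111.7 in ETS1-High. The 5 fibroblast markers, mostly COL1A1 and PDGFRA, summed to 47.7 to 54.6, 30.3 to 33.5 and 51.4 to 58.5 CPM in the same order, and they differed in direction. COL1A1 averaged 39.3 CPM in RFP, 28.3 in ETS1-Low and 50.9 in ETS1-High, PDGFRA 12.8, 3.72 and 2.95, DCN 0.014, 0.041 and 0.91, and LUM 0, 0 and 0.39, with COL1A2 at or near 0 throughout. Their part in the results was not tested.

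Differences between groups were tested with edgeR's quasi-likelihood test on the expected counts, with Benjamini-Hochberg adjustment over all 17235 genes, with a call wherever the adjusted p lay below 0.05. Sizes are log2 fold changes, and the ± beside a log2 value is its standard error. In ETS1-High against RFP 8 of the 9 genes were called, 3 higher and 5 lower, where 74.2% of all tested genes were called, 37% higher and 37.2% lower. In ETS1-Low against RFP 9 of 9 were called, 4 higher and 5 lower, against 74.1% of all genes, 37.9% higher and 36.2% lower. In ETS1-High against ETS1-Low 5 of 9 were called, all 5 lower, against 59.2% of all genes, 29.9% higher and 29.3% lower. With so many genes called in every comparison, a call alone says little about a member, and the sizes below carry the description. The libraries of the compared groups did not overlap for 8, 9 and 5 members in these comparisons, where that held for 75.5%, 76% and 63.2% of all tested genes. Log2 FPKM (fragments scaled to gene length and library size) was tested with limma. With a filter on low values, the ETS1-High against RFP calls split into 1 higher and 6 lower. Without that filter the higher call, SLFN13, was lost (limma adjusted p = 0.0838). A fall of at least 2-fold was seen for 2 members against RFP in each ETS1 group, SLFN5 and SLFN12, where 11.4% of all genes fell as far in ETS1-High and 12.2% in ETS1-Low.

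**Figure D1:**
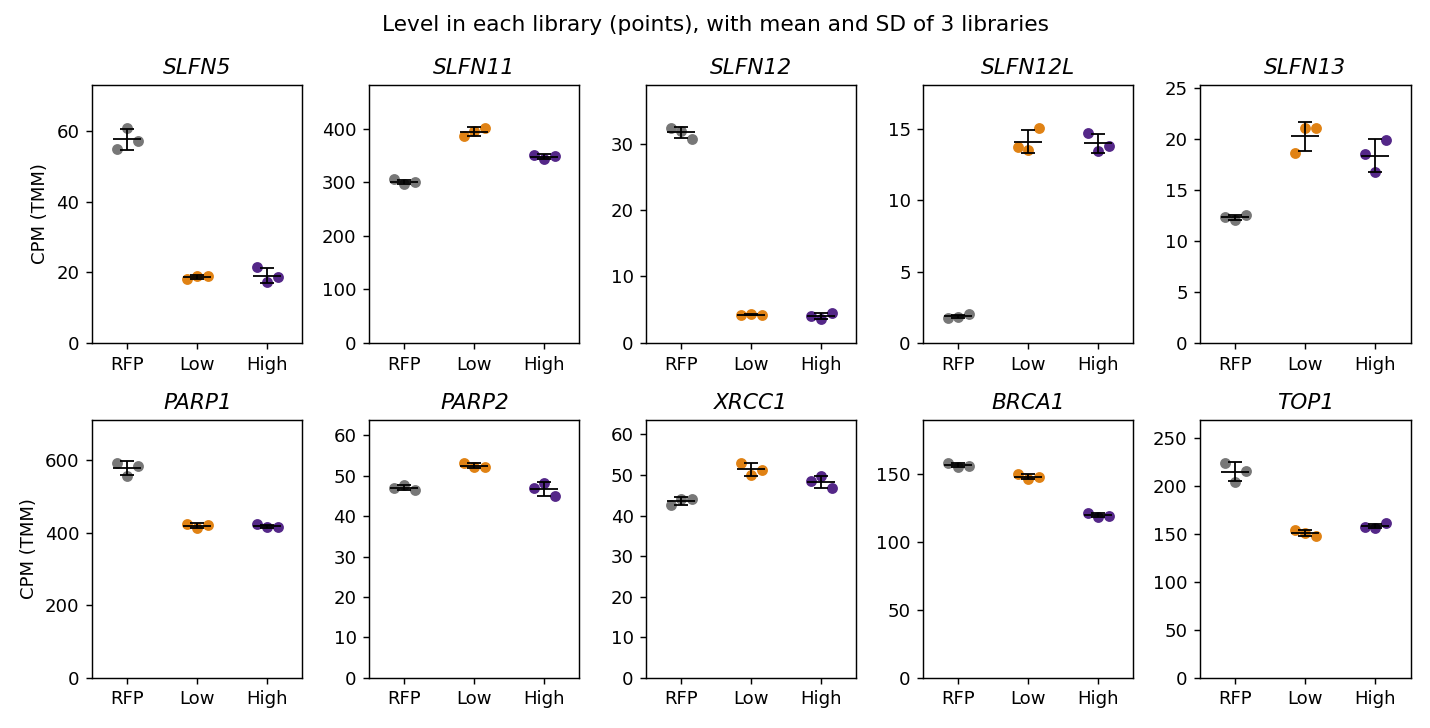
Level of each of the 9 genes and of SLFN12L in every library, in CPM with TMM-normalised library sizes. Points are libraries (RFP grey, ETS1-Low orange, ETS1-High purple), the horizontal line is the mean and the bars are the SD of 3 libraries. SLFN5 and SLFN12 drop in both ETS1 groups, and SLFN12L rises from 1.86 CPM to about 14 CPM. PARP1 and TOP1 step down from RFP without overlapping the RFP libraries.

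SLFN12 had the largest change of the set. The gene (ENSG00000172123.12, minus strand, chr17:35410922-35433283 on GRCh38) encodes a Schlafen protein known for transfer RNA cleavage and for the cytotoxic complex it forms with the phosphodiesterase PDE3A. Its level was 32.4, 31.9 and 30.7 CPM in the RFP libraries, 4.13, 4.34 and 4.27 CPM in ETS1-Low, and 4.09, 3.58 and 4.43 CPM in ETS1-High. Every library with introduced ETS1 lay far below every RFP library, and the ETS1 groups overlapped each other. Relative to RFP the log2 fold change was -2.97 ± 0.07 in ETS1-High (edgeR adjusted p = 9.2e-38) and -2.90 ± 0.07 in ETS1-Low (edgeR adjusted p = 3.3e-37). Between ETS1-High and ETS1-Low the difference was -0.08, with a 95% interval from -0.26 to 0.11 (edgeR adjusted p = 0.497), although ETS1 differed 1.81-fold between these groups.

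The sequence before SLFN12 is shown because it holds an exact ETS match. The motif searched was CCGGAAGT, on both strands, in the 250 bases before each start in the RefSeq promoter table of GRCh38.p14, where 3.42% of 35097 windows hold it. In SLFN12 it lies on the opposite strand, 96 to 89 bases before the RefSeq start, within chr17:35433252-35433281 on the minus strand, which GENCODE release 44 places in a 5′ exon of the gene. The shorter core CCGGAA, searched after the windows had been seen and present in 14.5% of all windows, overlaps this match and lies again 17 to 12 bases before the start. A match of letters is a description and no evidence of binding. The 30 bases around it follow, with the motif in capitals.
SLFN12 site: agagtgcggacACTTCCGGagcgccagctg

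SLFN5 fell next most. The gene (ENSG00000166750.9, plus strand, chr17:35243071-35273655) encodes an interferon-responsive nuclear Schlafen. Its level was 54.9, 61.0 and 57.2 CPM in RFP, 18.2, 18.9 and 19.0 CPM in ETS1-Low, and 21.4, 17.2 and 18.7 CPM in ETS1-High. The lowest RFP library stood above the highest library of either ETS1 group, and the ETS1 groups overlapped. Its log2 fold change from RFP was -1.60 ± 0.06 in ETS1-High (edgeR adjusted p = 2.7e-17), -1.63 ± 0.06 in ETS1-Low (edgeR adjusted p = 2.3e-17), and it was 0.02 between ETS1-High and ETS1-Low, with a 95% interval from -0.11 to 0.16 (edgeR adjusted p = 0.768).

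SLFN11, the family member tied to drug response, rose modestly and was highest in ETS1-Low. The gene (ENSG00000172716.16, minus strand, chr17:35350305-35373701) stood at 305, 297 and 299 CPM in RFP, at 385, 396 and 401 CPM for ETS1-Low, and at 352, 342 and 349 CPM in ETS1-High. No group overlapped another, and ETS1-High lay between the others. ETS1-Low exceeded RFP by a log2 fold change of 0.39 ± 0.03 (edgeR adjusted p = 3.0e-17), ETS1-High exceeded RFP by 0.21 ± 0.03 (edgeR adjusted p = 8.0e-09), and ETS1-High against ETS1-Low gave -0.18 ± 0.03 (edgeR adjusted p = 3.7e-07). The rise in ETS1-High depended on the scale. With FPKM, SLFN11 was 113 ± 1.09 in RFP, 131 ± 4.45 in ETS1-Low and 116 ± 5.61 in ETS1-High, and the ETS1-High against RFP difference was 0.03 on the log2(FPKM + 1) scale (limma adjusted p = 0.441), while ETS1-Low against RFP stayed called at 0.21 (limma adjusted p = 0.00035).

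SLFN11 counts were not whole numbers in 9 of 9 libraries, so part of its reads was shared with other genes and divided by estimation, and its level is uncertain to that extent. No CCGGAAGT match lies in its window. The shorter core CCGGAA lies 179 to 174 bases before the RefSeq start. The 170 bases of the window that lie outside annotated exons, chr17:35373702-35373871 on the minus strand, are shown as the region before the Schlafen gene most tied to drug response, with CCGGAA in capitals.
SLFN11: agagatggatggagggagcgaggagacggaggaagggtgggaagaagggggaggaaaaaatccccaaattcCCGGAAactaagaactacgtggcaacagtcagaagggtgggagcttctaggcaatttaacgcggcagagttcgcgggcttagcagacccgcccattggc

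SLFN13, which encodes a transfer RNA and ribosomal RNA cutting Schlafen, rose in both ETS1 groups. The gene (ENSG00000154760.13, minus strand, chr17:35435096-35448837) stood at 12.4, 12.1 and 12.6 CPM in RFP, at 18.7, 21.1 and 21.1 CPM for ETS1-Low, and at 18.5, 16.7 and 19.9 CPM in ETS1-High. Both ETS1 groups lay above RFP and overlapped each other. Relative to RFP the log2 fold change was 0.57 ± 0.06 in ETS1-High (edgeR adjusted p = 2.0e-11) and 0.72 ± 0.06 in ETS1-Low (edgeR adjusted p = 1.5e-14). ETS1-High lay below ETS1-Low by a log2 value of -0.14 ± 0.06, which passed narrowly (edgeR adjusted p = 0.0382) and was lost in 6 of 16 alternatives. Leaving out the second or the third ETS1-Low library gave -0.11 each, and leaving out the first or the second ETS1-High library gave -0.15 and -0.08, none of them called. SLFN13 counts were not whole in 9 of 9 libraries. With log2(FPKM + 1) the ETS1-High against RFP difference was 0.13, called with a filter on low values (limma adjusted p = 0.0376) and not without one (limma adjusted p = 0.0838), and the ETS1-Low value was 0.32.

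SLFN12L, the neighbour of SLFN13 and no member of the set, moved opposite to SLFN12. It stood at 1.77, 1.81 and 2.01 CPM in RFP, at 13.8, 13.5 and 15.1 CPM for ETS1-Low, and at 14.7, 13.4 and 13.8 CPM in ETS1-High, with no overlap between RFP and either ETS1 group. Its log2 fold change against RFP was 2.90 in ETS1-High (edgeR adjusted p = 8.5e-33) and 2.92 in ETS1-Low (edgeR adjusted p = 8.4e-33). An exon of SLFN12L overlaps a processed pseudogene on the same strand that held 67 counts on average. An exon also overlaps a transcribed unprocessed pseudogene on the same strand, for which no counts were available. How these overlaps bear on the SLFN12L counts was not tested. SLFN14 had at most 3 counts in any library and was not tested. SLFNL1, on chromosome 1, had 5 to 27 counts per library and was called lower in ETS1-High against RFP (log2 fold change -1.21, edgeR adjusted p = 0.0148) with overlapping libraries.

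Of the 3 Schlafen windows found, that of SLFN12L alone held the interferon-stimulated response element core, searched as GAAANNGAA on both strands and present in 6.88% of all windows. It lies 126 to 118 bases before the RefSeq start, in chr17:35537679-35537928 on the minus strand, and the window is shown, with the match in capitals, because SLFN12L moved opposite to SLFN12. Of the 12 genes looked up in the table, 8 were found, and SLFN5 and SLFN13 were not among them.
SLFN12L: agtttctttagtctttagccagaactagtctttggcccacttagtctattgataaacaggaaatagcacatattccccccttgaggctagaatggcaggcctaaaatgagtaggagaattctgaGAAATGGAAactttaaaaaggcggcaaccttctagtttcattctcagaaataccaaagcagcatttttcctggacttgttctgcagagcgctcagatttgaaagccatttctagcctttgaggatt

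Neither GGAAGGAA, a GGAA repeat held by 3.07% of windows, nor TTTCCCGC, an E2F motif held by 1.39%, was found in the windows of any of the 8 genes, on either strand. The windows of PARP1, PARP2, XRCC1 and TOP1 held none of the searched motifs, and BRCA1 held GAAANNGAA in 1 of its 2 windows. That these letters are absent says nothing about the factors.

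**Figure D2:**
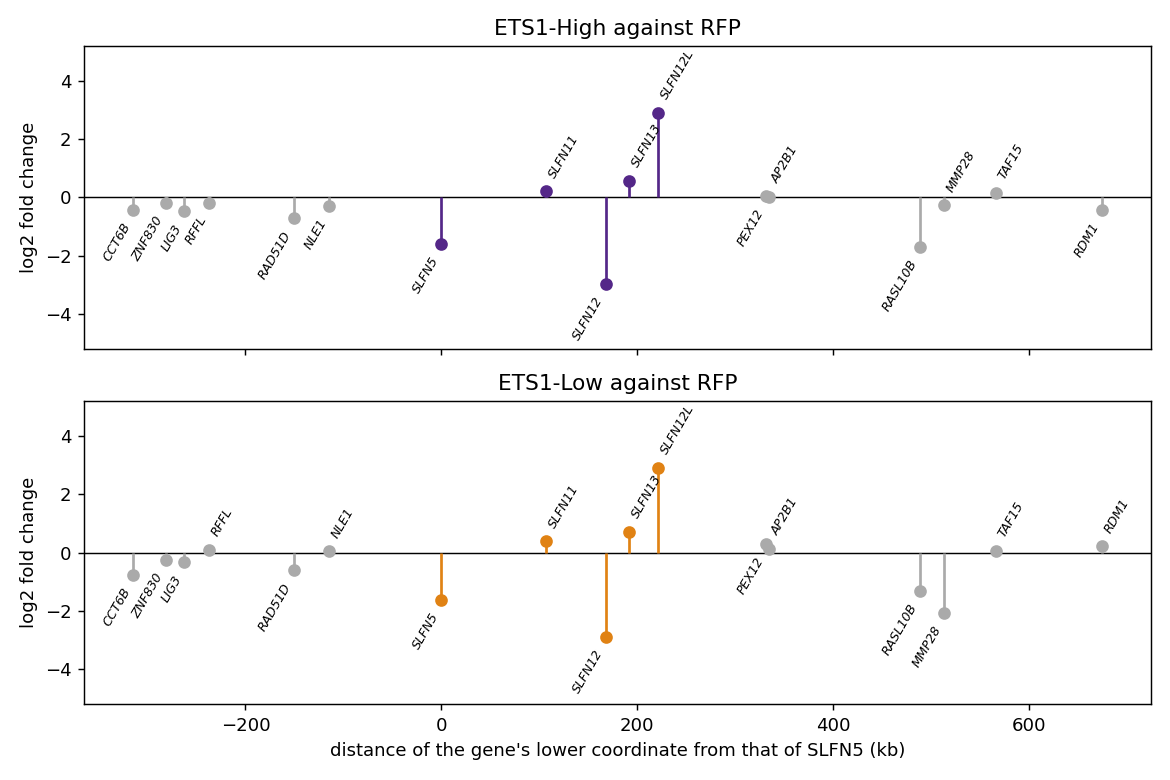
Log2 fold change of each tested gene at the Schlafen cluster on chromosome 17 against its distance from SLFN5, ETS1-High against RFP above and ETS1-Low against RFP below. Schlafen genes are coloured and flanking genes within 500 kb are grey. SLFN5 and SLFN12 point down and SLFN12L points up in both panels, between smaller changes of SLFN11 and SLFN13.

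The 5 tested Schlafen genes of the cluster lie within 317749 bases of chromosome 17, counted to the end of SLFN14, and their changes differed in direction along it. From SLFN5 onward the log2 fold changes in ETS1-High against RFP were -1.60, 0.21, -2.97, 0.57 and 2.90. In ETS1-Low against RFP the same genes read -1.63, 0.39, -2.90, 0.72 and 2.92. Both comparisons share the RFP libraries, so their likeness is no independent result. Of 26 protein-coding genes within 500 kb of the cluster, 12 were tested, and the median of their log2 fold changes was -0.28 in ETS1-High and -0.11 in ETS1-Low, both against RFP. Of these, 1 was higher and 7 lower in ETS1-High, and 3 higher and 6 lower in ETS1-Low, where 37.2% and 36.2% of all genes were lower. The DNA repair genes RAD51D and LIG3, which flank the cluster, were among the lower ones, at -0.72 and -0.48 in ETS1-High and -0.59 and -0.33 in ETS1-Low. RASL10B, which encodes a small GTPase and is named here after its values were seen, was the lowest of the flanking genes in ETS1-High at -1.70.

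The tested genes within 10 Mb of each member, with a mean log2 CPM above 1, were read beside it to show how the region moved. Around the Schlafen members the 219 to 220 neighbours had a median of -0.01 in ETS1-High against RFP and between -0.01 and -0.00 in ETS1-Low against RFP. Only 1 of 220 neighbours had a lower value than SLFN12 in ETS1-High against RFP, and 7 of 219 had a lower one than SLFN5. SLFN12L stood above all 221 of its neighbours in ETS1-High against RFP and above 219 of 221 in ETS1-Low against RFP. The part of the region in the members' changes was not tested.

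Length-scaled FPKM values describe the makeup of the family, but FPKM and CPM did not move in step for every gene. Mean SLFN13, for example, rose from 12.3 CPM with RFP to 18.4 CPM with high ETS1, while its mean FPKM rose only from 16.7 to 18.5. Whether the gene length used in the scaling differed between groups was not tested. The FPKM shares, ratios and order given below therefore hold for this scale only. SLFN11 made up 71.8% ± 1.02 of the summed Schlafen FPKM in RFP, 79.9% ± 0.17 in ETS1-Low and 79.2% ± 0.33 in ETS1-High. SLFN12 went from 12.4% ± 0.51 in RFP to 1.58% ± 0.19 in ETS1-Low and 1.81% ± 0.19 in ETS1-High, and SLFN5 from 4.50% ± 0.12 to 1.36% ± 0.02 and 1.74% ± 0.07. SLFN12L took the opposite course, from 0.60% ± 0.06 to 4.23% ± 0.21 and 4.61% ± 0.18. The ratio of SLFN12L to SLFN12 was accordingly 0.048 ± 0.006 in RFP, 2.69 ± 0.18 in ETS1-Low and 2.57 ± 0.20 in ETS1-High. The summed family FPKM was 157.6 ± 0.98, 164.5 ± 5.71 and 146.4 ± 7.20 in RFP, ETS1-Low and ETS1-High.

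**Figure D3:**
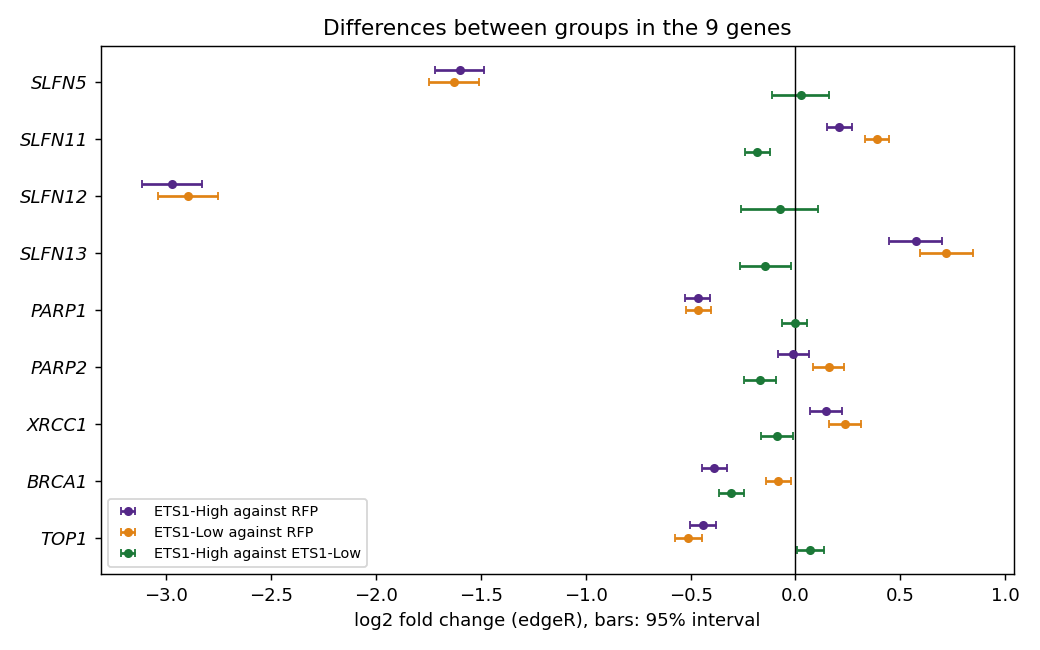
Log2 fold change of the 9 genes in the 3 comparisons (ETS1-High against RFP purple, ETS1-Low against RFP orange, ETS1-High against ETS1-Low green), with bars for the 95% interval from edgeR. The ETS1-High against ETS1-Low points lie between -0.31 for BRCA1 and 0.07 for TOP1, while SLFN12 reaches -2.97 against RFP.

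PARP1, the main strand break sensor and the target on which PARP inhibitors act, was lower with introduced ETS1. The gene (ENSG00000143799.12, minus strand, chr1:226360210-226408154) stood at 593, 555 and 584 CPM in RFP, at 424, 412 and 421 CPM for ETS1-Low, and at 423, 416 and 416 CPM in ETS1-High. The RFP libraries did not overlap those of either ETS1 group, and the ETS1 groups overlapped each other. Its log2 fold change from RFP was -0.47 ± 0.03 in ETS1-High (edgeR adjusted p = 7.7e-20), -0.46 ± 0.03 in ETS1-Low (edgeR adjusted p = 1.0e-19), and between the ETS1 groups it was -0.00, with a 95% interval from -0.06 to 0.06 (edgeR adjusted p = 0.943). Its 89 neighbours within 10 Mb had a median of -0.05 in ETS1-High against RFP and -0.10 in ETS1-Low against RFP.

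PARP2, the smaller relative of PARP1, did not follow it. The gene (ENSG00000129484.13, plus strand, chr14:20343615-20357904) stood at 47.0, 47.6 and 46.4 CPM in RFP, at 53.2, 52.2 and 52.1 CPM for ETS1-Low, and at 46.9, 48.3 and 44.9 CPM in ETS1-High. ETS1-Low lay above the other groups, which overlapped. ETS1-Low exceeded RFP by 0.16 ± 0.04 on the log2 scale (edgeR adjusted p = 0.00014), ETS1-High against ETS1-Low gave -0.17 ± 0.04 (edgeR adjusted p = 0.0001), and ETS1-High against RFP gave -0.01, with a 95% interval from -0.08 to 0.06 (edgeR adjusted p = 0.807). On log2(FPKM + 1) the calls against RFP changed places, with -0.16 in ETS1-High (limma adjusted p = 0.0029) and 0.03 in ETS1-Low (limma adjusted p = 0.549). The FPKM ratio of PARP1 to PARP2 was 5.64 ± 0.25 in RFP, 3.62 ± 0.04 in ETS1-Low and 4.12 ± 0.09 in ETS1-High.

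XRCC1, the single-strand break scaffold, was slightly higher in both ETS1 groups. The gene (ENSG00000073050.11, minus strand, chr19:43543311-43580473) stood at 42.6, 44.1 and 44.2 CPM in RFP, at 53.0, 49.9 and 51.2 CPM for ETS1-Low, and at 48.4, 49.7 and 46.7 CPM in ETS1-High, with no overlap between groups. It exceeded RFP by 0.24 ± 0.04 on the log2 scale in ETS1-Low (edgeR adjusted p = 2.3e-07) and 0.15 ± 0.04 in ETS1-High (edgeR adjusted p = 0.00053). With log2(FPKM + 1) the ETS1-High value was 0.08 and was not called (limma adjusted p = 0.173), and the ETS1-Low value was 0.14. The difference of -0.09 between ETS1-High and ETS1-Low (edgeR adjusted p = 0.0378) was lost in 10 of 16 alternatives. It was -0.07 without the first and -0.09 without the third ETS1-Low library, and -0.09 without the first and -0.06 without the third ETS1-High library, and in none of these was it called. Genes around XRCC1 rose as well. The 357 tested genes within 10 Mb had a median of 0.36 in ETS1-High against RFP, with 267 higher and 36 lower, and of 0.37 in ETS1-Low against RFP, so XRCC1 lay below the middle of its region. The part of the region in this rise was not tested.

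BRCA1 separated the ETS1 groups most clearly among the 9 genes. It (ENSG00000012048.21, minus strand, chr17:43044295-43170245) stood at 158, 156 and 156 CPM in RFP, at 150, 146 and 148 CPM for ETS1-Low, and at 122, 118 and 119 CPM in ETS1-High. No group overlapped another, and ETS1-Low lay close to RFP. ETS1-High differed from RFP by -0.39 ± 0.03 on the log2 scale (edgeR adjusted p = 1.2e-16), and from ETS1-Low by -0.31 ± 0.03 (edgeR adjusted p = 1.1e-12), and ETS1-Low differed from RFP by -0.08 ± 0.03 (edgeR adjusted p = 0.0118). The last of these was lost without a filter on low counts (edgeR adjusted p = 0.0506) and without the second ETS1-Low library (edgeR adjusted p = 0.0635), and it was -0.24 on log2(FPKM + 1) (limma adjusted p = 0.00032). The fall in ETS1-High against RFP was -0.60 on log2(FPKM + 0.1). An exon of BRCA1 overlaps a long noncoding RNA gene on the same strand with 1154 counts on average. BRCA1 counts were not whole in only 2 of 9 libraries, and how reads of the pair were divided was not tested.

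TOP1, the enzyme trapped by camptothecins, was lower in both ETS1 groups. The gene (ENSG00000198900.5, plus strand, chr20:41028822-41124487) stood at 224, 204 and 215 CPM in RFP, at 154, 150 and 147 CPM for ETS1-Low, and at 157, 156 and 161 CPM in ETS1-High, and no group overlapped another. Relative to RFP the log2 fold change was -0.44 ± 0.03 in ETS1-High (edgeR adjusted p = 8.7e-18) and -0.51 ± 0.03 in ETS1-Low (edgeR adjusted p = 3.6e-20). Between ETS1-High and ETS1-Low it was 0.07, with a 95% interval from 0.01 to 0.14 (edgeR adjusted p = 0.0548), and this difference passed the threshold in 8 of 16 alternatives, among them without the first ETS1-Low library, at 0.09. Its 149 neighbours within 10 Mb had a median of -0.06 in both comparisons with RFP. The FPKM ratio of TOP1 to PARP1 was 0.328 ± 0.006 in RFP, 0.321 ± 0.005 in ETS1-Low and 0.347 ± 0.013 in ETS1-High.

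The order of the 9 genes by FPKM changed with ETS1. In RFP the means ran from PARP1 at 194, SLFN11 at 113, TOP1 at 63.6, BRCA1 at 44.7, PARP2 at 34.4, XRCC1 at 26.5, SLFN12 at 19.5 and SLFN13 at 16.7 to SLFN5 at 7.09, and no neighbours in that order overlapped. In ETS1-Low SLFN11 at 131 and PARP1 at 127 overlapped at the top, and SLFN12 at 2.61 and SLFN5 at 2.23 overlapped at the bottom. In ETS1-High PARP1 at 126 stood above SLFN11 at 116, PARP2 at 30.6 overlapped BRCA1 at 29.6, and SLFN12 at 2.65 overlapped SLFN5 at 2.55. The FPKM ratio of SLFN11 to PARP1 was 0.584 ± 0.006 in RFP, 1.04 ± 0.04 in ETS1-Low and 0.921 ± 0.045 in ETS1-High.

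The genes whose log2 CPM followed SLFN11 most closely over the 9 libraries were FAAP20, ECI1 and MYO5A, with Pearson r of 0.997, 0.996 and 0.996 among 12348 genes compared. FAAP20, for example, had means of 47.2 CPM in RFP, 81.4 in ETS1-Low and 62.9 in ETS1-High, with the same order of groups as SLFN11. For PARP1 they were B4GALT5, CLPTM1L and CNOT6, with r of 0.999, 0.998 and 0.997, all at about the same level in both ETS1 groups. The libraries fall into 3 groups, so these values mostly describe group means.

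Several other genes of the PARP family changed further than PARP1 and PARP2. Of 21 tested genes of the family and of ADP-ribose removal, both members included, 9 were higher and 8 lower in ETS1-High against RFP, with a median of 0.04, and 14 were higher and 7 lower in ETS1-Low against RFP, with a median of 0.27. Of all tested genes, 37% were higher and 37.2% lower in the first comparison and 37.9% and 36.2% in the second, with medians of -0.01 and 0.01, so the ETS1-High split lay near that of all genes. PARP10, a mono-ADP-ribosyltransferase, stood at 1.81 ± 0.22 CPM in RFP and rose to 28.3 ± 0.99 CPM with low and 27.0 ± 0.23 CPM with high ETS1. PARP14, a macrodomain PARP of interferon responses, was 13.8 ± 0.54, 67.0 ± 1.60 and 88.5 ± 1.65 CPM in the same order.

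ZC3HAV1, which encodes the zinc finger antiviral protein, rose from 22.5 ± 1.70 CPM to 80.1 ± 2.43 in ETS1-Low and 76.3 ± 1.97 in ETS1-High. PARP9 and PARP12, further PARPs known to respond to interferon and named here after their values were seen, exceeded RFP by 2.55 and 1.15 on the log2 scale in ETS1-High and by 2.21 and 1.04 in ETS1-Low. PARP8 had 34 to 37 counts in the RFP libraries, 1 count in each ETS1-Low library and 0 to 4 counts in the ETS1-High libraries. Each of these 6 genes was called in both comparisons with RFP by edgeR. TIPARP and PARP11, of the same list and also named after their values were seen, were called lower in both. They changed by -0.70 and -0.68 on the log2 scale in ETS1-High, and by -0.69 and -0.93 in ETS1-Low.

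**Figure D4:**
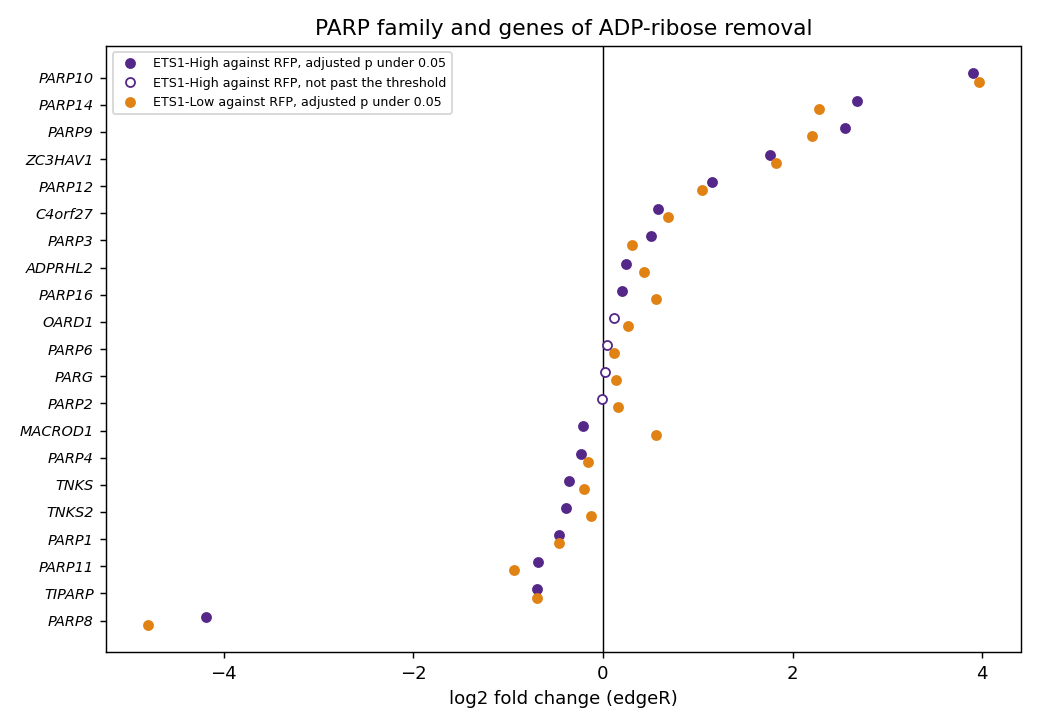
Log2 fold change of the 21 tested genes of the PARP family and of ADP-ribose removal, ordered by ETS1-High against RFP (purple), with ETS1-Low against RFP beside it (orange); open circles did not pass an adjusted p of 0.05. PARP10, PARP14, PARP9, ZC3HAV1 and PARP12 stand above 1, PARP1 lies at -0.47 and PARP8, with few counts, lies below -4.

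Genes of interferon signalling, which several Schlafen and PARP genes are known to follow, were mostly higher in both ETS1 groups. Of 9 tested, 7 were higher and 0 lower in ETS1-High against RFP, with a median of 0.76, and 7 were higher and 0 lower in ETS1-Low against RFP, with a median of 0.35, beside 37% and 37.9% of all genes called higher. IRF1, an interferon-induced transcription factor, stood at 5.05, 4.91 and 5.22 CPM in RFP, at 7.78, 7.47 and 6.27 CPM for ETS1-Low, and at 24.1, 25.0 and 23.8 CPM in ETS1-High, so that ETS1-High stood apart from both other groups. JAK1, the kinase of the interferon receptors, was 279.5 ± 8.07, 617.5 ± 6.84 and 531 ± 9.24 CPM from RFP over ETS1-Low to ETS1-High. IFNAR2 and IRF7 were not called in either comparison. SLFN5, described as interferon-responsive, went the other way, and so did SLFN12, while SLFN11, SLFN13 and SLFN12L were higher.

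Partners of XRCC1 in single-strand break and base excision repair were mixed. Of 21 tested genes, XRCC1 included, 9 were higher and 7 lower in ETS1-High against RFP, and 12 higher and 6 lower in ETS1-Low against RFP, with medians of 0.00 and 0.14, beside 37% higher and 37.2% lower among all genes in the first comparison and 37.9% and 36.2% in the second. LIG1, which seals nicks in replication and repair, was 91.9 ± 2.59 CPM in RFP, 189 ± 2.72 in ETS1-Low and 173 ± 0.66 in ETS1-High. POLD1, the catalytic subunit of DNA polymerase delta, and OGG1, which removes oxidised guanine, exceeded RFP by 0.48 and 0.81 on the log2 scale in ETS1-High and by 0.69 and 0.72 in ETS1-Low. LIG3, the ligase that works with XRCC1, was lower, as given above. In ETS1-High against ETS1-Low 14 of the 21 were lower and 2 higher, beside 29.3% of all genes lower.

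Among homologous recombination genes, more were lower than higher in ETS1-High. Of 24 tested, BRCA1 included, 14 were lower and 5 higher in ETS1-High against RFP, with a median of -0.14, and 10 lower and 12 higher in ETS1-Low against RFP, with a median of 0.06. The shares over all genes were 37.2% lower and 37% higher, and 36.2% lower and 37.9% higher. BARD1, the partner of BRCA1, moved against it, at 41.4 ± 1.12 CPM in RFP, 48.2 ± 1.00 in ETS1-Low and 61.0 ± 1.47 in ETS1-High. RAD50, of the complex that processes broken ends, was 133 ± 2.99, 84.7 ± 2.99 and 86.3 ± 1.71 CPM in the same order. RAD51D, also a repair gene, was 62.2 ± 1.94, 41.3 ± 0.56 and 37.8 ± 1.29 CPM in that order. Counts were not whole in 9 of 9 libraries for RAD50 and in 8 of 9 for RAD51D.

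Replication checkpoint and RPA genes, with which SLFN11 acts at stalled forks, split evenly. Of 19 tested, 9 were higher and 8 lower in ETS1-High against RFP and 10 higher and 9 lower in ETS1-Low against RFP, with medians of 0.02 and 0.19. In all genes 37% and 37.9% were higher and 37.2% and 36.2% lower. CHEK1, the checkpoint kinase, rose by log2 values of 0.41 and 0.39 in ETS1-High and ETS1-Low. The phosphatase gene CDC25A changed by -0.52 and -0.57, and HUS1, of the checkpoint clamp, by -0.65 and -0.28.

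Among the 6 topoisomerase genes, 4 were lower and 2 higher in ETS1-High against RFP, and 4 lower and 1 higher in ETS1-Low against RFP, where 37.2% and 36.2% of all genes were lower and 37% and 37.9% higher. TOP2A, the replication-linked type II enzyme and target of etoposide, was 826 ± 14.9 CPM in RFP, 856 ± 20.2 in ETS1-Low and 998 ± 10.1 in ETS1-High, and only ETS1-High was called against RFP (edgeR adjusted p = 7.2e-12; ETS1-Low edgeR adjusted p = 0.11), with the difference between the ETS1 groups also called (edgeR adjusted p = 4.3e-09). TOP1MT, the mitochondrial type I enzyme, was 41.1 ± 1.10, 60.6 ± 2.26 and 34.0 ± 1.55 CPM in the same order. TOP3B changed by -0.32 and -0.36 on the log2 scale in ETS1-High and ETS1-Low.

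Other genes known to modify the response to PARP or topoisomerase inhibitors were mixed in ETS1-High, and in ETS1-Low more were higher than lower. Of 19 on the list, 17 were tested, with 6 higher and 7 lower in ETS1-High against RFP and 8 higher and 2 lower in ETS1-Low against RFP, and medians of -0.00 and 0.03. That is 76.5% and 58.8% of the list called, beside 74.2% and 74.1% of all genes. Of all genes, 37% were higher and 37.2% lower in the first comparison, and 37.9% and 36.2% in the second. RIF1, which protects broken ends from resection, was 175.5 ± 5.59, 252.6 ± 2.37 and 314 ± 10.7 CPM from RFP over ETS1-Low to ETS1-High. The helicase-like gene HLTF changed by -0.58 and -0.59 on the log2 scale, and FAM35A, an older name of the shieldin gene SHLD2, by -0.58 in ETS1-High and -0.03 in ETS1-Low (edgeR adjusted p = 0.457). FAM35A counts were not whole in 9 of 9 libraries. The drug efflux genes ABCB1 and ABCG2 were too low to test.

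**Figure D5:**
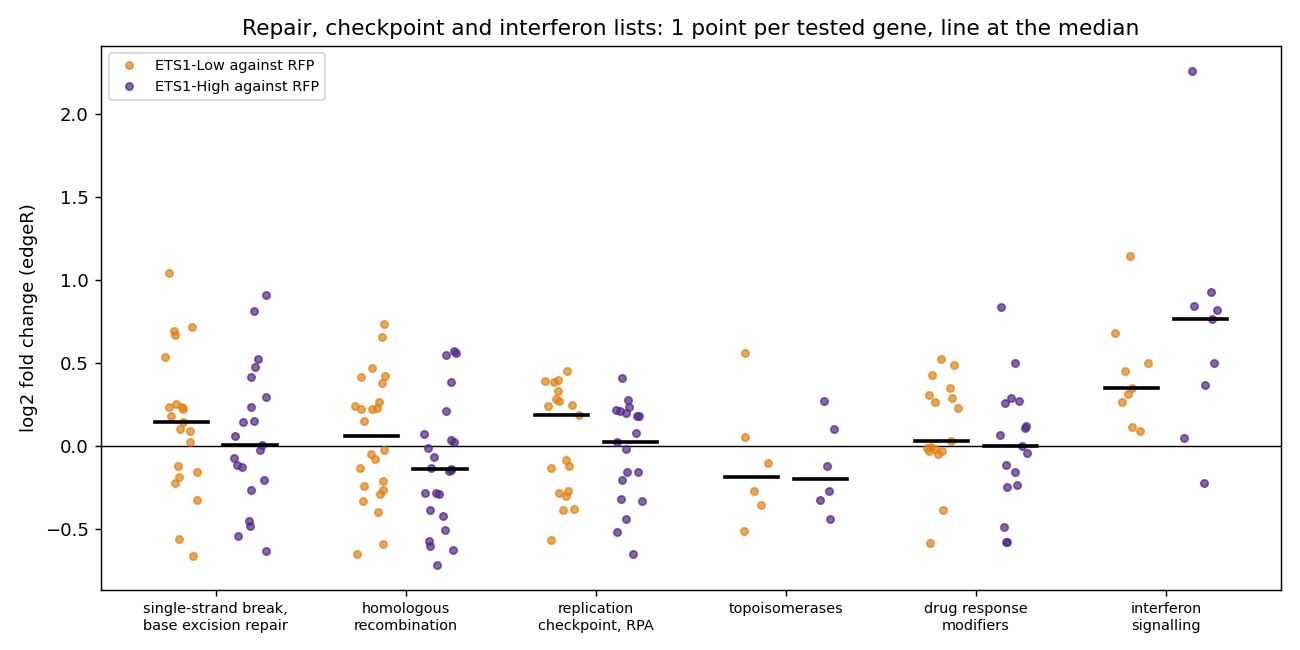
Log2 fold change of every tested gene of 6 lists against RFP, ETS1-Low in orange and ETS1-High in purple, 1 point per gene with a black line at the median. The interferon signalling medians lie at 0.35 and 0.76, and the other medians between -0.20 and 0.19.

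Over all 8 lists, 101 of 123 tested genes were called in ETS1-High against RFP, 50 higher and 51 lower, 107 in ETS1-Low against RFP, 67 higher and 40 lower, and 77 between the ETS1 groups, 22 of them higher in ETS1-High and 55 lower. These are 82.1%, 87.0% and 62.6% of the listed genes tested, beside 74.2%, 74.1% and 59.2% of all genes, of which 29.9% were higher and 29.3% lower between the ETS1 groups. The direction depended on the scale. With log2(FPKM + 1) and limma the first split was 34 higher and 54 lower, and the second 46 higher and 43 lower.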

How the data were processed

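RNA from 9 TC-32 libraries was sequenced after stranded mRNA library preparation, per the labels' protocols. The authors deposited RSEM expected counts and RSEM FPKM per gene, per the file headers. The submitters' processing notes name cutadapt 4.4, STAR 2.7.3, featureCounts, Subread 2.0.3, limma 3.38.3 and GRCh38, with no role given, and the annotation release is not given in the sources used here. Expected counts divide shared reads by estimation, and 9.00% to 10.3% of a library's values had decimals.

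Counts were rounded, filtered with filterByExpr by group (17235 genes left), TMM-normalised and tested with edgeR 4.0.16 in R 4.3.3 (quasi-likelihood, robust, group only, all 9 libraries). The SE of a fold change is its size over the square root of F. FPKM entered limma 3.58.1 on log2(FPKM + 1), log2(FPKM + 0.1), with and without a minimum mean FPKM of 1. DESeq2 1.42.0, other normalisations, other filters, a replicate block and leaving out each library were further alternatives. Replicate pairs differed by more than sampling noise (chi-square per gene 2.66 to 5.19, near 1 expected), so no pair was treated as 1 library deposited more than once, which does not show that they came from separate cultures. Positions are from GENCODE release 44 and promoters from RefSeq GRCh38.p14.

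The members, the 8 gene lists and the markers were chosen with earlier results of these data known. Named list genes are the 3 with the smallest p and the 2 with the largest called change per list in ETS1-High against RFP, and likeness names the 3 highest correlations for SLFN11 and PARP1 among genes with a mean log2 CPM above 1. Not every gene that this rule names is reported here. Of 131 symbols in the lists, counted once per list, 1 was not found.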

Additional observations from a re-analysis of the deposited data

Results flagged for a closer look

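For 5 of the 9 genes the ETS1-High and ETS1-Low groups differed from each other in edgeR's test of that difference, and all 5 were lower in ETS1-High. BRCA1 differed by -0.31, SLFN11 by -0.18, PARP2 by -0.17, SLFN13 by -0.14 and XRCC1 by -0.089 on the log2 scale. The libraries of the ETS1 groups did not overlap for BRCA1, SLFN11, PARP2 and XRCC1, and overlapped for SLFN13. Among all genes 29.3% were called lower in this comparison.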

How the results depend on the processing

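No member changed sign with a call under any of the 16 alternatives per comparison. SLFN5, SLFN12, PARP1 and TOP1 stayed lower and called in both comparisons with RFP under all of them. Counted over members and alternatives, a call was lost 7 times and gained 3 times in ETS1-High against RFP, lost 5 times in the ETS1-Low comparison with RFP, and lost 16 times and gained 8 times between the ETS1 groups. The count of members called in ETS1-High against ETS1-Low, 5, ran from 3 to 5 when single libraries were left out, with 3 without the third ETS1-Low or the first ETS1-High library. List genes called in that comparison fell from 77 to 46 with log2(FPKM + 1) and no filter. Libraries with the same replicate number showed no clear pairing (same-number correlations from -0.09 to 0.11), which cannot show that they were unpaired. With a replicate block 8, 9 and 6 members were called in ETS1-High against RFP, ETS1-Low against RFP and ETS1-High against ETS1-Low. The sixth in the last comparison was TOP1 (edgeR adjusted p = 0.0493). FPKM lowered the share of higher calls among all genes from 49.8% to 38.1% in ETS1-High against RFP with no filter, and the cause was not tested.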
